A study of Homo sapiens with 2 samples.

Results

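Of 41 genes that mark DNA replication and S phase, 39 had a row of their own in both gene-by-cell matrices and were described here, out of 32738 gene rows in all. They were matched by symbol to a list of replication and S-phase genes, and no measured value entered that match. UHRF1 and CASP8AP2 had no row under those symbols and were not analysed here. Of the 39, 37 had 10 CPM or more (UMIs scaled to a common library total) in either library and are called measured, while CCNE2 and BRIP1 stayed below that level in both.

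The cells were Nalm-6, an established human pre-B acute lymphoblastic leukemia cell line, carrying a Tet-On construct that is switched on by doxycycline. In the ETV6-RUNX1 library the construct encoded the ETV6-RUNX1 (TEL-AML1) fusion, a leukemia fusion of a pair of transcription factors. In the LUC control library it encoded luciferase. Cells of both libraries were grown in Tet-system approved serum, received 500 ng/ml doxycycline for 24 h and had dead cells removed with beads before droplet capture, so doxycycline and the Tet-On system were common to both. Each group was 1 library, and the labels do not say whether the modified cells were a clone or a pool.

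DNA replication begins with licensing, in which ORC, CDC6 and CDT1 load the MCM2-7 helicase ring onto origins in G1. In S phase CDC45 and GINS join that ring, and polymerases alpha, delta and epsilon copy both strands with the sliding clamp PCNA and its loader RFC. Many of these genes are targets of E2F transcription factors, which are released when RB is phosphorylated at the G1/S transition, and they are expressed in proliferating leukemia lines.

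The ETV6-RUNX1 library held 2267 kept cells with a median of 19219 UMIs (unique molecular identifiers, each counted as 1 captured transcript), and the LUC control library 1870 kept cells with a median of 22535.5 UMIs. The summed depth was 43941536 UMIs in ETV6-RUNX1 cells and 42762188 UMIs in LUC control cells. All 9 B-cell precursor markers were measured, with a summed level of 3645 CPM in ETV6-RUNX1 cells and 4671 CPM in LUC control cells. The 5 erythroid and megakaryocyte markers were at 0 in both libraries, no T, NK, epithelial or fibroblast marker was measured, and CST3 was the 1 measured myeloid marker. The libraries shared 16 cell barcodes, 7 of them among the kept cells. With 1 library per group there was no replicate check and no test: intervals are exact 95% intervals for counting error only, and ratios describe these 2 libraries.

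Start regions of the members show what the replication genes had in common in sequence. RefSeq windows (GRCh38.p14, from 250 bases before to 50 bases after an annotated start) were found for 30 of the 39 members. A window was searched on both strands for the E2F-type letters TTTCCCGC, TTTCGCGC, TTTGCCGC and TTTGGCGC, and for CCAAT, the letters bound by NF-Y. Matches that overlap on opposite strands were each counted. Counts were made on hg19, a different build, so the coordinates below locate the sequence alone. Shown are the 160 bases before the start, 5′ to 3′ on the gene's strand, with E2F-type and CCAAT matches in capitals. Where a gene had several windows, the one with the most matches is shown. UNG is printed as the earliest member along the cell cycle, MCM6 as a helicase subunit, PCNA as the clamp, TYMS and RRM2 as the pair with the highest correlation across cells before any noise correction, and RFC2 as the member with the lowest ratio between the libraries. The regions are chr12:109098012-109098171 (UNG, plus strand), chr2:135876444-135876603 (MCM6, minus), chr20:5126623-5126782 (PCNA, minus), chr18:657493-657652 (TYMS, plus), chr2:10122579-10122738 (RRM2, plus) and chr7:74254400-74254559 (RFC2, minus).
UNG: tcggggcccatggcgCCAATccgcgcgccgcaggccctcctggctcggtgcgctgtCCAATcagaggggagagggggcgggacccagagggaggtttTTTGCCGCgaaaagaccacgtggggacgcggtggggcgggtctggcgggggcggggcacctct
MCM6: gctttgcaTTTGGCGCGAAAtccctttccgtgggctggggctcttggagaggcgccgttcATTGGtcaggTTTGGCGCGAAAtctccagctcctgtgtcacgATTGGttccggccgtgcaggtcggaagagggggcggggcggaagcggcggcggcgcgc
PCNA: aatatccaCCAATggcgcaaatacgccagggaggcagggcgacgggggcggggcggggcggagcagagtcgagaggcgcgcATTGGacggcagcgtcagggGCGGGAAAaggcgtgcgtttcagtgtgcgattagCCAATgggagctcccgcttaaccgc
TYMS: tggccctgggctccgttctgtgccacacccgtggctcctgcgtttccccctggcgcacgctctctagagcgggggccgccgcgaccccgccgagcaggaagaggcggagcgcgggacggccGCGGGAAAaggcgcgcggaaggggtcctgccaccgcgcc
RRM2: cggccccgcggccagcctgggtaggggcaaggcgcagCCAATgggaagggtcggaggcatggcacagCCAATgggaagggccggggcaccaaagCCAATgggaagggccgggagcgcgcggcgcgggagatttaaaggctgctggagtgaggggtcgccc
RFC2: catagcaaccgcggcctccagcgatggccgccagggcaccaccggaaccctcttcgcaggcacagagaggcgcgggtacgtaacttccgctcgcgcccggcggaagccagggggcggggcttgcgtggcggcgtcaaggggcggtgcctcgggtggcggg

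E2F-type letters were found in 17 of the 30 members with a window, or 56.7%, against 3.99% of all genes with a window and 8.27% of measured genes. CCAAT was found in 22 of 30, or 73.3%, against 39.7% of all genes and 45.4% of measured genes. Either was found in 26 members, or 86.7%, against 41.9% of all genes and 49.6% of measured genes. The unrelated letters TTTGAA were found in 4 members, or 13.3%, against 18.2% of all genes and 13.7% of measured genes. In the sequences printed, MCM6 held 4 E2F-type matches in 2 stretches together with 2 CCAAT matches, UNG held 1 and 2, PCNA held 1 and 3, and TYMS held 1 and 0. RRM2 held 3 CCAAT matches and no E2F-type match in the bases shown, and RFC2 held neither. A match is a description of letters and not a shown binding site.

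The summed level of the replication genes differed little between the libraries. The 39 members together took 119122 UMIs, or 2711 CPM (0.271% of UMIs), in ETV6-RUNX1 cells and 120922 UMIs, or 2828 CPM (0.283%), in LUC control cells, a log2 ratio of -0.06 (-0.07 to -0.05). The median log2 ratio of the 37 measured members was -0.05, beside -0.04 over all 5954 measured genes. A size of at least 0.32 on the log2 scale was used to count genes. Members lower in ETV6-RUNX1 cells by that size were 2 of 37, RFC2 and TIPIN, or 5.41%, beside 3.31% of all measured genes. No member was higher by that size, beside 1.65% of all measured genes, and none passed 1.5-fold, which 0.655% of all measured genes did downward and 0.185% upward. Intervals lay below 0 for 14 members, or 37.8%, beside 31.9% of all measured genes, and above 0 for 2 members, beside 13.0%. These interval counts depended on the scaling. With TMM scaling, which shifts every log2 ratio up by about 0.05, intervals lay below 0 for 7 members, or 18.9%, beside 20.0% of all measured genes, and above 0 for 8 members, or 21.6%, beside 21.5%. The 7 that stayed below 0 were RFC2, TIPIN, RPA2, MCM4, PCNA, FEN1 and GMNN. The intervals of MCM5, CDC6, CDC45, TYMS, UNG, CDCA7 and SLBP then held 0, and those of MCM7, HELLS, NASP, USP1, RAD51AP1 and CLSPN lay above it. The interval calls of these 13 members thus did not hold under both scalings. As a group the members were close to the background of all genes.

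**Figure D1:**
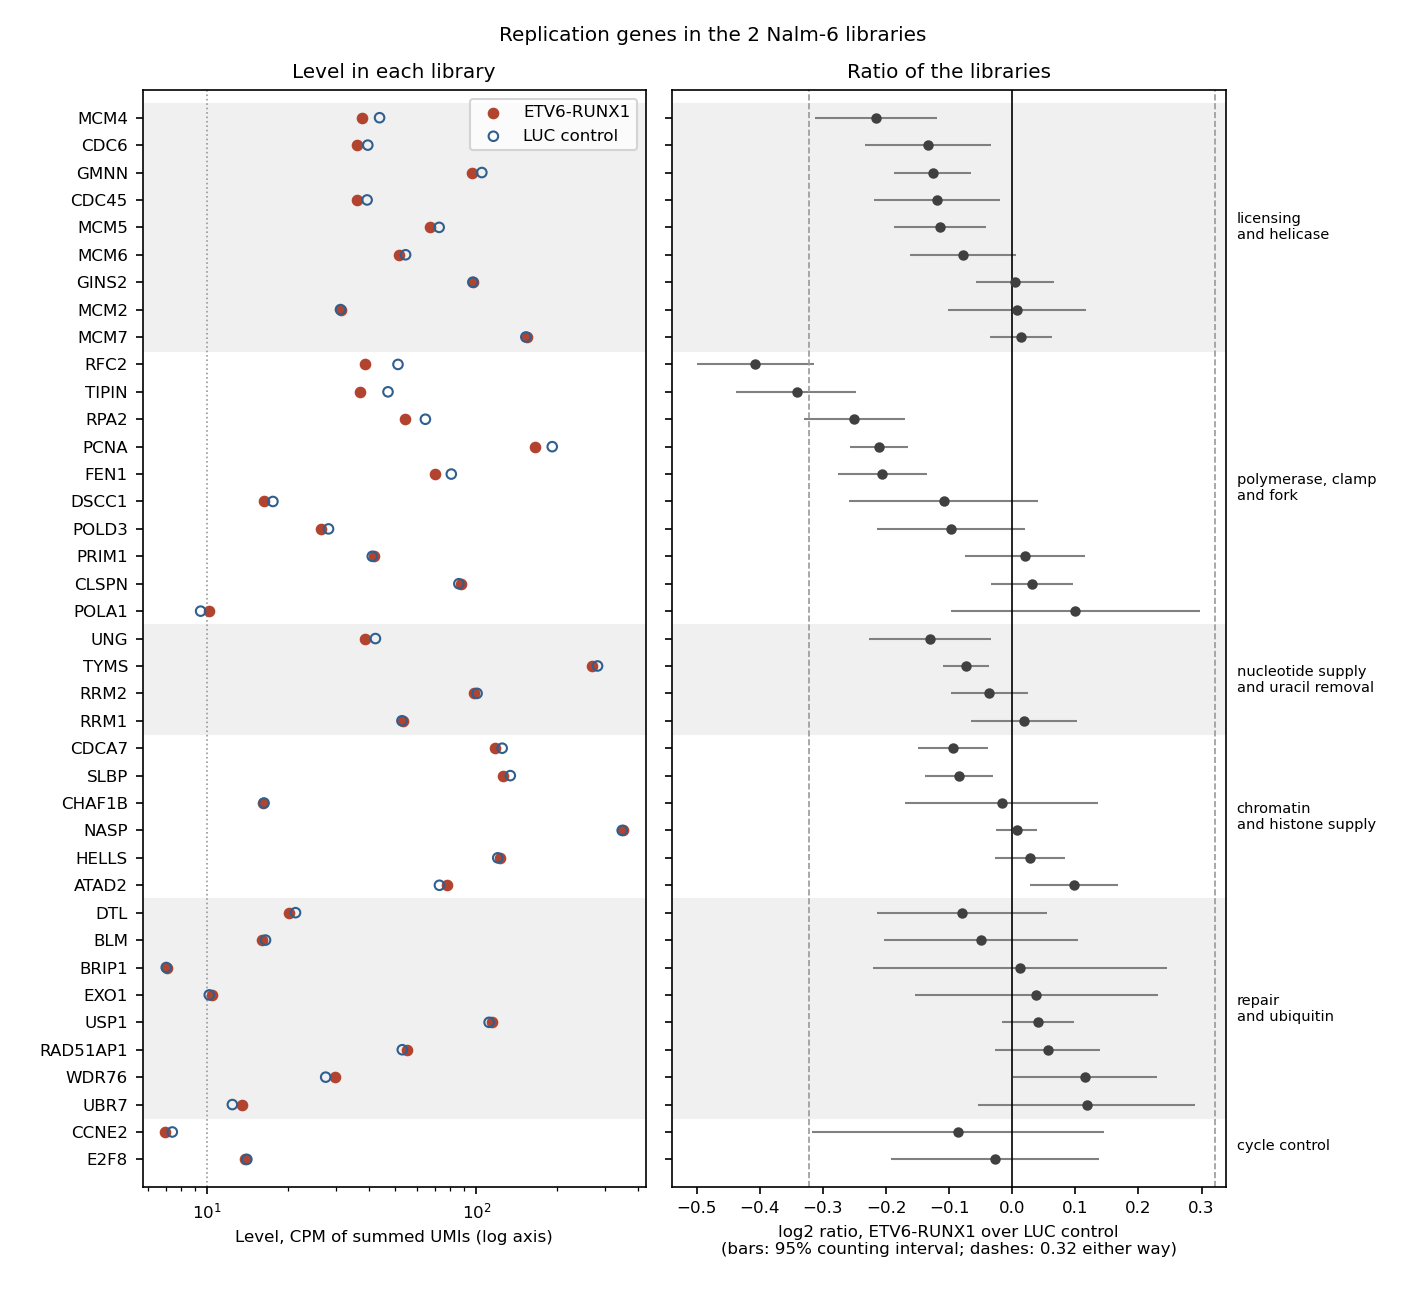
Level of each member in CPM on a log axis (left; filled points ETV6-RUNX1, open points LUC control, dotted line at 10 CPM) and its log2 ratio of ETV6-RUNX1 over LUC control with the 95% counting interval (right; dashed lines at a log2 ratio of 0.32 either way), grouped by role. RFC2 at -0.41 and TIPIN at -0.34 are the 2 members past the lower dashed line.

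Among licensing and helicase genes, none of 9 differed by 0.32 or more, and the median log2 ratio was -0.11. The MCM ring subunits MCM2 and MCM7 were level, with MCM2 at 31.4 CPM in ETV6-RUNX1 cells and 31.3 CPM in LUC control cells, and MCM7 at 154 CPM and 153 CPM in the same order. MCM4, another ring subunit, had 37.6 CPM in ETV6-RUNX1 cells and 43.7 CPM in LUC control cells, a log2 ratio of -0.22 (-0.31 to -0.12). MCM5 had 67.2 CPM in ETV6-RUNX1 cells and 72.8 CPM in LUC control cells (log2 ratio -0.11), and MCM6 had 51.7 CPM and 54.6 CPM (-0.08, with an interval that held 0). Subunits of 1 ring thus differed in ratio, from 0.01 for MCM7 to -0.22 for MCM4. CDC6, the loader of the ring, had 36.0 CPM in ETV6-RUNX1 cells and 39.5 CPM in LUC control cells (-0.13). Geminin (GMNN), which blocks reloading by binding CDT1, had 96.1 CPM and 105 CPM (-0.13). CDC45, which activates the ring, had 36.2 CPM and 39.3 CPM (-0.12), while GINS2, its partner in the active helicase, had 97.3 CPM and 97.0 CPM (0.00).

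Polymerase, clamp and fork genes held the lowest ratios of all members, with a median of -0.16 over 10 genes. RFC2, a subunit of the loader that opens PCNA onto DNA, had 1695 UMIs (38.6 CPM) in ETV6-RUNX1 cells and 2187 UMIs (51.1 CPM) in LUC control cells, a log2 ratio of -0.41 (-0.50 to -0.31). TIPIN, which with TIMELESS steadies stalled forks, had 1628 UMIs (37.0 CPM) in ETV6-RUNX1 cells and 2008 UMIs (47.0 CPM) in LUC control cells, a log2 ratio of -0.34 (-0.44 to -0.25). RPA2, a subunit of the protein that coats single-stranded DNA, had 2389 UMIs (54.4 CPM) in ETV6-RUNX1 cells and 2765 UMIs (64.7 CPM) in LUC control cells, a log2 ratio of -0.25 (-0.33 to -0.17). RPA2 was the member just inside the size of 0.32 and TIPIN the member just past it, and the intervals of RFC2, TIPIN and RPA2 each spanned it. With TMM scaling TIPIN was at -0.30 and RFC2 alone passed the size. PCNA had 165 CPM in ETV6-RUNX1 cells and 191 CPM in LUC control cells (-0.21, -0.26 to -0.17), and FEN1, the nuclease that trims Okazaki fragment flaps, had 70.0 CPM and 80.7 CPM (-0.21). The remaining fork genes had intervals that held 0 on library totals. They were PRIM1 (primase; log2 ratio 0.02), POLA1 (catalytic subunit of polymerase alpha; 0.10), POLD3 (a subunit of polymerase delta; -0.10), DSCC1 (part of a second clamp loader; -0.11) and CLSPN (claspin, a checkpoint adaptor; 0.03).

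Genes for nucleotide supply were nearly level. TYMS, which makes thymidylate, had 268 CPM in ETV6-RUNX1 cells and 282 CPM in LUC control cells, a log2 ratio of -0.07 (-0.11 to -0.04) that became -0.03 with TMM scaling, with an interval that held 0. The ribonucleotide reductase subunits RRM1 and RRM2 had log2 ratios of 0.02 and -0.04, with intervals that held 0. UNG, the glycosylase that removes uracil from DNA, had 38.5 CPM in ETV6-RUNX1 cells and 42.2 CPM in LUC control cells (-0.13).

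Chromatin and histone supply genes ran from -0.09 to 0.10. NASP, a histone chaperone, had 350 CPM in ETV6-RUNX1 cells and 348 CPM in LUC control cells, and the chromatin remodeller HELLS had 122 CPM and 120 CPM. ATAD2, a bromodomain ATPase, was 1 of the 2 members with an interval above 0 on library totals, at 78.0 CPM in ETV6-RUNX1 cells and 72.9 CPM in LUC control cells (0.10, 0.03 to 0.17). CDCA7, a partner of HELLS, had a log2 ratio of -0.09 and SLBP, which binds histone mRNA, -0.08, both with intervals below 0 on library totals that held 0 with TMM scaling. CHAF1B, a subunit of the chromatin assembly factor, had -0.02.

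Repair and ubiquitin genes had a median log2 ratio of 0.04 over 7 measured genes. WDR76, a WD-repeat protein, had 29.8 CPM in ETV6-RUNX1 cells and 27.5 CPM in LUC control cells, a log2 ratio of 0.12 whose interval began at 0.00. The other 6 had intervals that held 0 on library totals. USP1, which removes ubiquitin from PCNA, had 115 CPM in ETV6-RUNX1 cells and 112 CPM in LUC control cells, and RAD51AP1, a recombination repair factor, had 55.2 CPM and 53.1 CPM. UBR7 had a log2 ratio of 0.12, the nuclease EXO1 0.04, the helicase BLM -0.05 and DTL, which directs degradation of CDT1, -0.08. Of the genes of cycle control, the repressor E2F8 had 13.8 CPM in ETV6-RUNX1 cells and 14.03 CPM in LUC control cells. The 2 members under the 10 CPM floor were CCNE2 (cyclin E2), with 307 UMIs in ETV6-RUNX1 cells and 317 UMIs in LUC control cells, and the helicase BRIP1, with 312 UMIs and 301 UMIs.

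Genes of the same pathway outside the member list were examined too. Of 55 further replication genes, 49 were measured, and none was lower or higher by 0.32 or more. Their median log2 ratio was -0.03, beside -0.04 over all measured genes. Ratios lay below 0 for 30 of the 49, beside 63.8% of all measured genes, so these genes were close to the background. The largest absolute log2 ratios belonged to POLD4, a small polymerase delta subunit, at 27.3 CPM in ETV6-RUNX1 cells and 23.4 CPM in LUC control cells (0.22), and to DCK, a nucleoside kinase, at 30.2 CPM and 34.8 CPM (-0.20). They were followed by RPA1 (-0.19), POLE3 (-0.19), ORC2 (0.17) and POLE2 (-0.15). RPA1 and RPA2, subunits of the same complex, both had lower levels in ETV6-RUNX1 cells. RPA3, the remaining subunit, named after its values were seen, did not share this: it had 238 CPM in ETV6-RUNX1 cells and 230.1 CPM in LUC control cells, a log2 ratio of 0.05 (0.01 to 0.09).

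RFC2 lies beside LAT2 in the reference gene order on chromosome 7, and LAT2 had a far lower ratio. LAT2, a membrane adaptor of B-cell signalling, had 704 UMIs (16.0 CPM) in ETV6-RUNX1 cells and 2381 UMIs (55.7 CPM) in LUC control cells, a log2 ratio of -1.80 (-1.92 to -1.68). CLIP2, on the other side of RFC2 and under the 10 CPM floor, had 63 UMIs in ETV6-RUNX1 cells and 175 UMIs in LUC control cells (-1.51). The next measured neighbours, EIF4H and GTF2I, had log2 ratios of -0.10 and 0.14. Across cells RFC2 and LAT2 correlated at r = 0.021 in ETV6-RUNX1 cells (n = 2043) and 0.0044 in LUC control cells (n = 1786). The neighbours of TIPIN were both under the floor, DIS3L at -0.31 and MAP2K1 at 0.03, and the neighbours of RPA2 had at most 26 UMIs in either library. Whether the neighbourhood bears on the RFC2 ratio was not tested.

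To follow the members through the cycle, cells were thinned to 8700 UMIs each, which kept 2043 ETV6-RUNX1 cells and 1786 LUC control cells and left out 224 and 84 shallower cells. Cells were ordered on a circle by the summed UMIs of 20 early genes, MCM3 among them, against those of 54 G2/M genes. No member was among them. The circle, starting where both sums were low, was cut into 8 bins holding equal numbers of cells over both libraries. A gene's position is the circular mean of its bin levels in percent of cells passed, and its peak-to-trough ratio is its highest bin mean over its lowest. Genes outside the members lay as follows. MCM3 was at 36.6% in ETV6-RUNX1 cells and 37.5% in LUC control cells, the histone gene HIST1H4C at 54.3% and 56.6%, CCNA2 (cyclin A2) at 60.1% and 61.7%, and CDC20, of mitosis, at 71.7% and 70.0%. MCM3 was itself used in the ordering, as was CDC20. Median depth before thinning also varied along the axis, between 17444 and 24025 UMIs in ETV6-RUNX1 cells and between 19100 and 26635 UMIs in LUC control cells, and its part in the profiles was not tested.

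The summed members had a single peak along this circle in each library. Their mean per thinned cell was 17.9 UMIs in bin 1, 31.3 in bin 4 and 16.7 in bin 8 in ETV6-RUNX1 cells, and 19.0, 32.2 and 20.2 in the same bins in LUC control cells. The peak-to-trough ratio of the sum was 1.87 in ETV6-RUNX1 cells and 1.69 in LUC control cells. A member's own ratio reached 2 for 25 of 37 members in ETV6-RUNX1 cells, or 67.6%, beside 16.4% of all measured genes, and for 21 of 37 in LUC control cells, or 56.8%, beside 17.8%. The ratio was larger among sparse genes, reaching 2 in 25.5% of all genes of 10 to 30 CPM in ETV6-RUNX1 cells and in 28.7% in LUC control cells, so members were also read within level classes. At 30 to 100 CPM, 12 of 18 members in ETV6-RUNX1 cells and 10 of 18 in LUC control cells reached 2, beside 7.10% and 6.67% of all genes of that class. At 100 CPM or more it was 3 of 9 in each library, beside 3.86% and 3.20%. At 10 to 30 CPM it was 9 of 9 in ETV6-RUNX1 cells and 7 of 9 in LUC control cells. UNG had the steepest profile of the members above 30 CPM, with a ratio of 3.50 in ETV6-RUNX1 cells and 5.51 in LUC control cells, and RRM2 had 3.43 and 2.69. RPA2 (1.35 and 1.37) and NASP (1.52 and 1.37) had the flattest. The highest bin lay among bins 2 to 5 for 35 of 37 members in ETV6-RUNX1 cells and for 37 of 37 in LUC control cells, beside 49.5% and 53.4% of all measured genes. The early genes used to order cells were also highest in bin 4, at 15.2 UMIs in ETV6-RUNX1 cells and 13.9 in LUC control cells. Across cells their sum correlated with the summed members at r = 0.68 and 0.63. The place and height of the member peak are thus partly set by the ordering and are not independent of it.

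**Figure D2:**
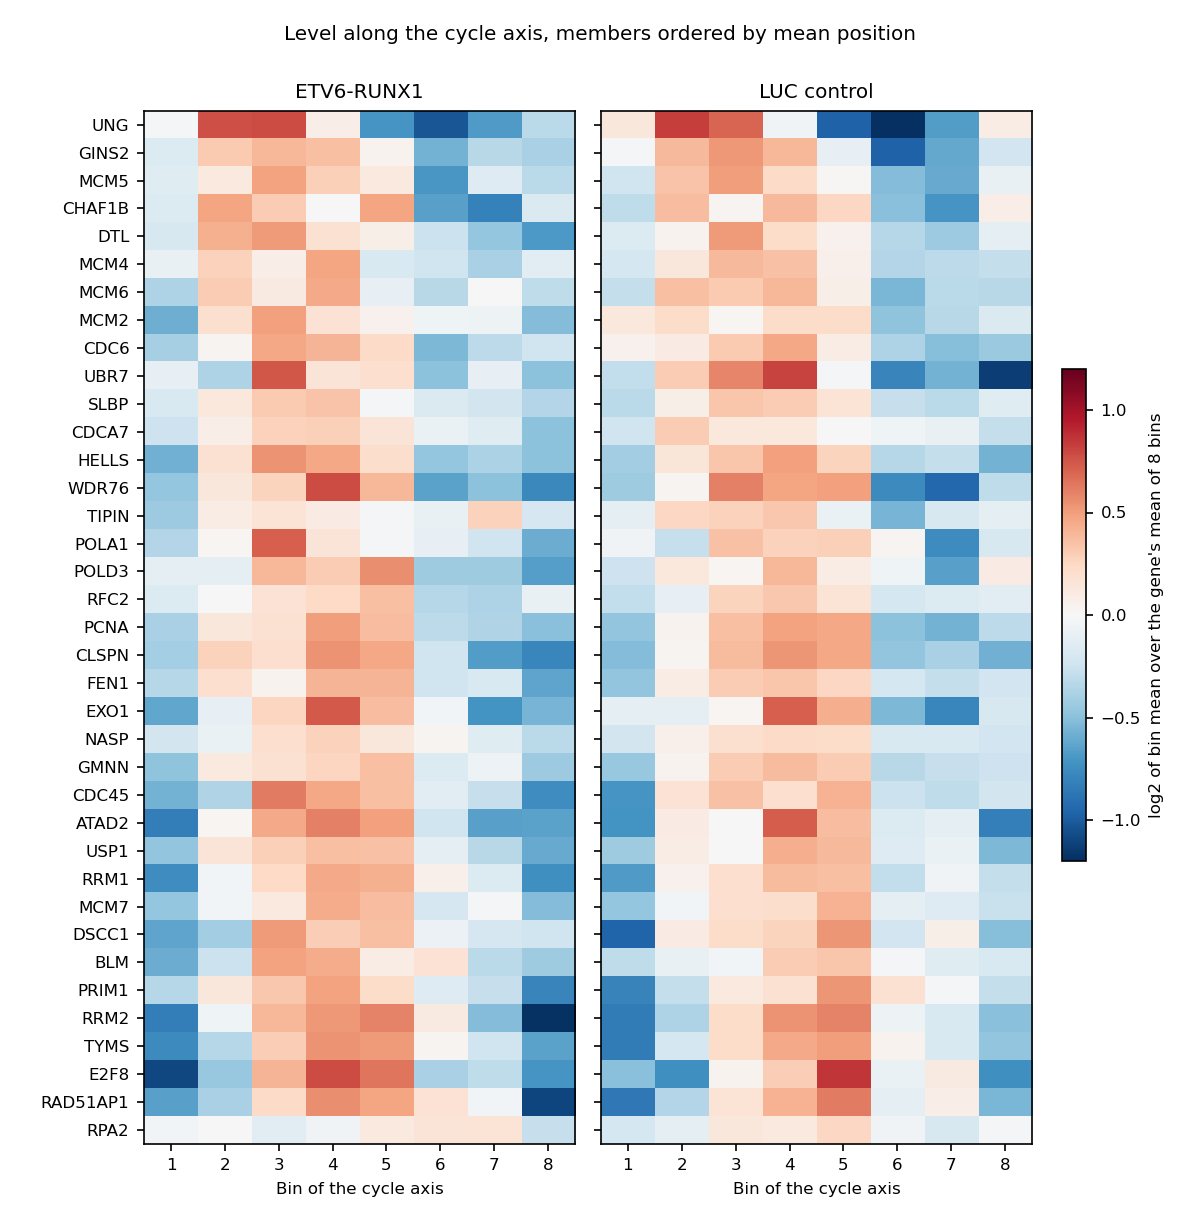
Mean UMIs per thinned cell of the 37 measured members in 8 bins of the cycle axis, as log2 over the gene's mean of the 8 bins (red above, blue below), ETV6-RUNX1 left and LUC control right. The warm band lies in bins 2 to 3 for UNG at the top and in bins 4 to 5 for TYMS and RAD51AP1 near the bottom in both libraries.

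The order began with UNG, and RPA2, RAD51AP1, E2F8 and TYMS were latest by the mean of both libraries. UNG was earliest in both libraries, at 23.9% in ETV6-RUNX1 cells and 19.9% in LUC control cells, and stayed the earliest under each of the 8 alternative settings run. Its mean was highest in bin 3 at 0.583 UMIs in ETV6-RUNX1 cells and in bin 2 at 0.686 UMIs in LUC control cells, and lowest in bin 6 at 0.167 and 0.124 UMIs. After it came the helicase genes GINS2 (32.4% in ETV6-RUNX1 cells and 28.5% in LUC control cells) and MCM5 (33.4% and 30.3%). CHAF1B, DTL, MCM4, MCM6 and CDC6 lay between 31.6% and 37.97% in ETV6-RUNX1 cells and between 33.4% and 35.5% in LUC control cells.

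PCNA lay near the middle, at 41.7% in ETV6-RUNX1 cells and 40.8% in LUC control cells. CLSPN was at 41.0% and 41.9%, FEN1 at 43.3% and 41.3%, and GMNN at 45.1% and 41.4% in ETV6-RUNX1 and LUC control cells. RRM1 was at 47.7% in ETV6-RUNX1 cells and 45.5% in LUC control cells, RRM2 at 46.3% and 49.9%, and TYMS at 48.9% and 49.7%. RAD51AP1 was late in both, at 50.5% in ETV6-RUNX1 cells and 52.0% in LUC control cells. MCM7 lay later than its ring partners, at 46.8% in ETV6-RUNX1 cells and 47.2% in LUC control cells, whereas MCM2 was at 40.1% and 30.3%. E2F8 was at 46.8% in ETV6-RUNX1 cells and 54.9% in LUC control cells. SLBP, UBR7, CDCA7, HELLS, WDR76, POLA1, POLD3, RFC2, EXO1, NASP, CDC45, ATAD2, USP1, DSCC1 and BLM lay between 36.5% and 47.1% in ETV6-RUNX1 cells and between 35.7% and 50.3% in LUC control cells. By role, the median position of licensing and helicase genes was 37.97% in ETV6-RUNX1 cells and 34.8% in LUC control cells, of polymerase, clamp and fork genes 41.6% and 41.9%, and of nucleotide supply genes, UNG included, 47.0% and 47.6%. Polyadenylated histone transcripts, summed, came after all of these medians, at 53.7% in ETV6-RUNX1 cells and 56.2% in LUC control cells. This sum mostly followed HIST1H4C, which alone averaged 57.1 UMIs in bin 4 in ETV6-RUNX1 cells and 56.7 in LUC control cells, beside 64.4 and 62.3 for the sum.

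The order was alike in both libraries for most members but not all. The median absolute difference in position was 3.09 percentage points, and 31 of 37 members differed by 5 or less. No value over all measured genes stands beside these. Cells of both libraries were ordered together on the same sums, and how much of the likeness follows from that was not tested. Over the 37 genes positions correlated at Pearson r = 0.67 and Spearman rho = 0.69, a description over genes that share the same cells. Members closer than about 3 points, such as PCNA and CLSPN, are not ordered by these data. As that is a median, wider gaps can be unresolved too. A second thinning seed alone moved 9 members in ETV6-RUNX1 cells and 14 in LUC control cells by more than that median. Positions then correlated with the main ones at Spearman rho = 0.84 and 0.88. TIPIN, RPA2 and PRIM1 differed by over 10 points. TIPIN was at 49.2% in ETV6-RUNX1 cells and 29.5% in LUC control cells, RPA2 at 65.6% and 47.1%, and PRIM1 at 41.0% and 55.2%. TIPIN and RPA2 had shallow profiles, with peak-to-trough ratios of 1.64 and 1.35 in ETV6-RUNX1 cells and 1.85 and 1.37 in LUC control cells, and their positions moved with the settings. Over the settings run, TIPIN ranged from 32.6% to 57.2% in ETV6-RUNX1 cells and from 29.5% to 40.5% in LUC control cells. RPA2 ranged from 51.1% to 68.5% and from 46.1% to 53.9%, and PRIM1 from 39.6% to 48.9% and from 48.6% to 56.0%, in ETV6-RUNX1 and LUC control cells. The ranges of the libraries overlapped for all 3 genes. Within a setting, ETV6-RUNX1 minus LUC control ran from -1.21 to 27.2 points for TIPIN, from 3.25 to 20.9 for RPA2 and from -15.1 to -3.51 for PRIM1. It passed 10 points in 6, 5 and 5 of the 9 settings for TIPIN, RPA2 and PRIM1, so differences of that size did not hold across settings.

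The 6 members with the lowest ratios between libraries were lower along most of the circle, in single bins often within counting error. They were picked by their ratios over the same cells, so lower levels in most bins follow largely from that choice. The summed members were also lower in bin 8, at 16.7 UMIs in ETV6-RUNX1 cells and 20.2 in LUC control cells, and level in bin 6, at 21.2 and 21.1. RFC2 was lower in ETV6-RUNX1 cells in 8 of 8 bins, with the interval below 0 in 4. PCNA was lower in 8 of 8 bins, with the interval below 0 in 4, and in bin 3 it averaged 1.62 UMIs in ETV6-RUNX1 cells and 2.24 UMIs in LUC control cells. MCM4 and FEN1 were lower in 8 of 8 bins, with the interval below 0 in 2 each. TIPIN was lower in 6 of 8 bins, with the interval below 0 in 5, and RPA2 in 7 of 8, with the interval below 0 in 4. In bin 4 TIPIN averaged 0.315 UMIs in ETV6-RUNX1 cells and 0.491 UMIs in LUC control cells, whereas in bin 7 it averaged 0.356 and 0.344 UMIs. RPA2 in bin 3 averaged 0.426 UMIs in ETV6-RUNX1 cells and 0.620 UMIs in LUC control cells, and in bin 7 it averaged 0.523 and 0.492 UMIs. The libraries were closest in bins 6 and 7 for TIPIN and in bins 1, 6 and 7 for RPA2, and a difference between bins was not tested.

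Members varied together from cell to cell. Over 666 pairs of measured members the median Pearson r of log-transformed UMIs in thinned cells was 0.059 in ETV6-RUNX1 cells (n = 2043) and 0.054 in LUC control cells (n = 1786), beside 0.0021 and 0.0016 over all pairs of measured genes. With unthinned UMIs scaled to 10000 per cell the member median was 0.110 in ETV6-RUNX1 cells and 0.111 in LUC control cells. The correlation was above 0 for 95.6% of member pairs in ETV6-RUNX1 cells and 94.1% in LUC control cells, beside 53.5% and 52.6% of all pairs. It reached 0.15 for 52 pairs in ETV6-RUNX1 cells and 31 pairs in LUC control cells, beside 0.0604% and 0.0378% of all pairs. Counts of single genes were sparse, and counting noise lowers r. Genes of 10 to 30 CPM made up a smaller part of the members than of all measured genes. The pairs of all measured genes were not matched to the members for level. How much of the gap between member pairs and all pairs follows from level was not tested. With the Poisson part of each variance taken out, the median r was 0.64 in ETV6-RUNX1 cells and 0.54 in LUC control cells over 91 pairs of 14 members, against 0.140 and 0.125 for the same pairs uncorrected. These 14 averaged at least 0.4 UMIs per thinned cell and had a variance over 10% above the mean in both libraries, so they are the better counted and more variable members, a choice made after the data were seen. The corrected value is an estimate that can pass 1, as it did for 2 pairs in ETV6-RUNX1 cells and 1 pair in LUC control cells. It rests on UMIs that were not log-transformed, whereas the uncorrected r is of log-transformed UMIs. The corrected and uncorrected values thus differ in scale as well. Within bins of the cycle axis the median r of member pairs, uncorrected, was 0.043 in ETV6-RUNX1 cells and 0.039 in LUC control cells. Neither the corrected r nor the r within bins has a value over all measured genes beside it.

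The pair with the highest uncorrected r was TYMS with RRM2, both of nucleotide supply, at r = 0.30 in ETV6-RUNX1 cells and 0.29 in LUC control cells. PCNA followed with TYMS (0.28 and 0.26), with NASP (0.26 and 0.23) and with CLSPN (0.22 and 0.23). TYMS with MCM7 had 0.28 in ETV6-RUNX1 cells and 0.16 in LUC control cells. Pairs within a role had a median r of 0.067 in ETV6-RUNX1 cells and 0.061 in LUC control cells, and pairs across roles 0.058 and 0.052.

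**Figure D3:**
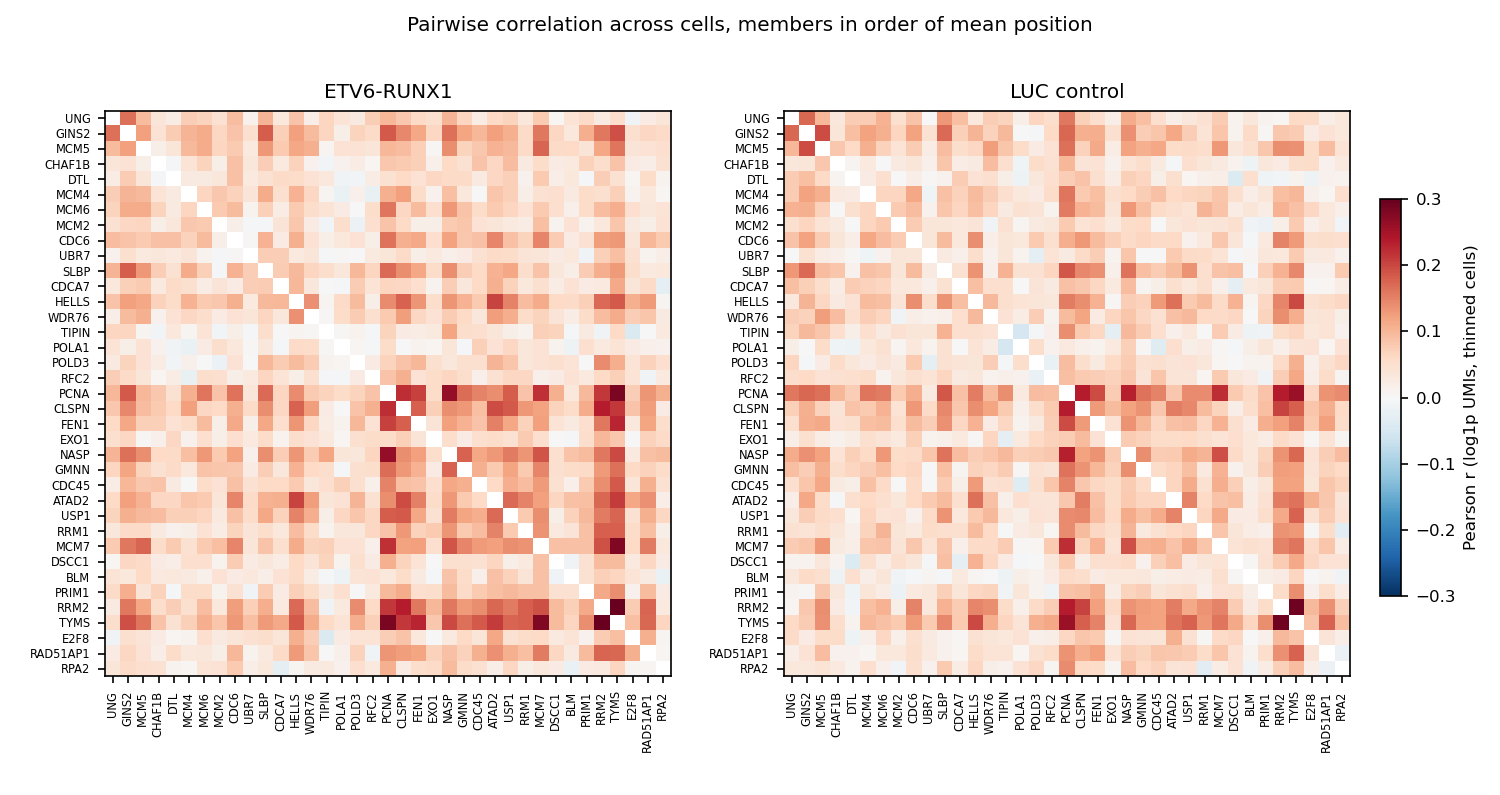
Pearson r across thinned cells for each pair of the 37 measured members, in order of mean position, ETV6-RUNX1 left and LUC control right (red above 0, blue below 0, diagonal blank). Rows of TYMS, PCNA, RRM2, CLSPN and NASP are among the warmest in both libraries, and most other pairs are pale.

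Against the summed other members, r reached 0.15 for 25 of 37 members in each library, or 67.6%, beside 3.36% of all measured genes in ETV6-RUNX1 cells and 2.65% in LUC control cells. Here too all measured genes were not matched to the members for level. TYMS led at 0.47 in ETV6-RUNX1 cells and 0.43 in LUC control cells, then PCNA at 0.41 and 0.44, and NASP at 0.38 and 0.35. RFC2 had 0.13 in ETV6-RUNX1 cells and 0.14 in LUC control cells. The 10 other genes with the highest mean r with the summed members were DUT (0.54 in ETV6-RUNX1 cells and 0.55 in LUC control cells), KIAA0101 (0.54 and 0.47), H2AFZ (0.52 and 0.48), HIST1H4C, HMGB1, TUBA1B, STMN1, HMGB2, DEK and TK1. The summed members correlated with total UMIs before thinning at 0.091 in ETV6-RUNX1 cells and 0.047 in LUC control cells. A thinned cell held a median of 23 member UMIs in ETV6-RUNX1 cells and 24 in LUC control cells.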

How the data were processed

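Single-cell RNA was captured with 10X droplets from 1 library per group. The authors deposited raw UMI counts of every gene in every cell barcode, made with Cell Ranger 3.0.2 on hg19, per the submitters' processing notes. The labels do not say how reads of overlapping genes were counted. Cells with at least 1000 genes and at most 10% mitochondrial UMIs were kept, and doublets were left in. UMIs were summed over kept cells, scaled to CPM and compared as log2 ratios with exact intervals. Measured genes had at least 10 CPM in either library. UMI levels do not rank genes against each other.

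For the cycle axis and for correlations, cells were thinned to 8700 UMIs. Whole-number sums tie, and cells with tied sums at first followed the order of the files, in which one library preceded the other. This put 307 ETV6-RUNX1 and 172 LUC control cells in bin 5. After this was seen, ties were broken at random with a fixed seed, which gave 275 and 204. The earlier handling is kept as an alternative.

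The members, gene lists, thresholds and the rule for named genes (every member, the 6 further replication genes with the largest absolute log2 ratio and any that differed by 0.32 or more on the log2 scale, the 10 other genes most correlated with the summed members, and the neighbours of RFC2, TIPIN and RPA2) were chosen with earlier results of these data known. The computations were tested on simulated data. Alternatives were other scalings (TMM in edgeR 4.0.16, median of ratios), cell filters, floors, bins, seeds and tie handling. Python 3.11.15, numpy 2.4.6 and scipy 1.17.1 were used.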

Additional observations from a re-analysis of the deposited data

How the results depend on the processing

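The count of members lower in ETV6-RUNX1 cells by 0.32 or more on the log2 scale was 2 (RFC2 and TIPIN) and became 1 with TMM scaling, median-of-ratios scaling, totals without ribosomal protein and mitochondrial genes, or a 50 CPM floor, and 0 at 1.5-fold. The first 3 of these shift all measured genes by about 0.05 on the log2 scale, and they change the share of all measured genes past that size to 2.25% lower and 2.23% higher with TMM, against 3.31% and 1.65%. Under each of those 3 scalings, a count made after the data were seen, 7 members rather than 14 had an interval below 0 and 8 rather than 2 had one above 0. Over the alternatives the log2 ratio ran from -0.43 to -0.36 for RFC2, from -0.42 to -0.30 for TIPIN and from -0.28 to -0.20 for RPA2. The median log2 ratio of the members lay between -0.08 and -0.004. Under those 3 scalings no interval call turned from below 0 to above 0 or the reverse. Ratios near 0 did change sign: with TMM scaling RRM2 went from -0.04 to 0.01, CHAF1B from -0.02 to 0.03 and E2F8 from -0.03 to 0.02. Members with a ratio below 0 were 22 on library totals, or 59.5%, beside 63.8% of all measured genes. They were 19 with TMM scaling and 25 with cells weighted equally, with no share over all measured genes beside these. The count of members with a peak-to-trough ratio of 2 or more ran from 22 to 34 in ETV6-RUNX1 cells and from 15 to 30 in LUC control cells. Both highest counts came with 12 bins rather than 8. No share of all measured genes stands beside the counts of the alternative settings. The count was 26 in ETV6-RUNX1 cells and 18 in LUC control cells with tied cells left in file order. With a second seed for tied cells it was 23 and 23. Both settings were chosen after seeing the data. The count was smaller in ETV6-RUNX1 cells in no setting run, but its excess varied and was absent in that last setting. The larger count in ETV6-RUNX1 cells is thus not a stable difference. The median pairwise r was 0.110 in ETV6-RUNX1 cells and 0.111 in LUC control cells with unthinned UMIs scaled to 10000 per cell; the cause was not tested. Positions along the cycle axis also moved with the settings. Their Spearman rho with the main positions fell as low as 0.71 in ETV6-RUNX1 cells and 0.88 in LUC control cells. No paired analysis was possible because each group was 1 library. Levels near 10 CPM rest on about 439 UMIs in ETV6-RUNX1 cells and 428 UMIs in LUC control cells, which limits their precision.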
